A study of Mus musculus with 16 samples.

Results

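A set of 9 genes of insulin signalling and FOXO1 action was followed in the livers of obese mice given the long-acting glucagon receptor agonist G108. They were Insr, Irs1, Irs2, Pik3r1, Akt2, Foxo1, Foxo3, Igfbp1 and Igfbp2, taken by their gene symbols, and all 9 of 9 are present among the 55487 genes of the liver table. Every mouse was a male C57BL6/J animal, housed alone and made obese on a diet with 60% of its energy from fat for 8 weeks from an age of 10 weeks. The fat-rich diet was then given with a standard (SP) or a high (HP) protein content, and G108, 2.5 nmol/kg, or vehicle was injected under the skin each day over 22 days. The 4 groups of 4 mice are named G108 SP, G108 HP, vehicle SP and vehicle HP, and each mouse gave 1 liver library. All mice were culled on day 25 after 4 h without food, so all 4 groups shared obesity, a high-fat diet and the fast. The methods of the study give a younger age, shorter feeding and an earlier end than these sample records.

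Insulin binds its receptor on the hepatocyte, and the receptor phosphorylates the adaptor proteins IRS1 and IRS2. These recruit PI3 kinase, whose product brings AKT2 to the membrane, and AKT2 phosphorylates FOXO1 and FOXO3 so that they leave the nucleus. In fasting, when insulin is low and glucagon is high, nuclear FOXO1 switches on genes such as Igfbp1, Irs2 and those of gluconeogenesis, and cAMP from the glucagon receptor acts on many of the same promoters. Phosphorylation and the place of a protein in the cell are not seen in messenger RNA, so the values here are levels of transcripts and not of signalling.

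The unit deposited is TPM, the transcripts of a gene per 1000000, which corrects for gene length. TPM are shares of a library, and the shares of the most abundant transcripts differed between the groups. The major urinary protein (Mup) genes took 42.6% to 49.7% of TPM in vehicle SP and 35.7% to 44.9% in vehicle HP, but 18.3% to 23.0% in G108 SP and 18.2% to 29.6% in G108 HP. As TPM stand, the median difference over 11839 genes between G108 SP and vehicle SP was 0.60 on the log2 scale, against 0.092 between G108 HP and vehicle HP. Levels below are TPM divided by 1 factor per library (scaled TPM), which puts the median gene near a difference of 0, and differences are log2 of (scaled TPM + 1) with their standard error (SE). A gene was called changed where limma gave an adjusted p under 0.05 with Benjamini-Hochberg adjustment over the 11839 genes with a mean of at least 1 TPM. All 9 genes passed that minimum, with means over the 16 libraries of 188 TPM for Igfbp2, 11.1 for Igfbp1, 10.4 for Akt2, 5.21 for Insr, 4.94 for Pik3r1, 4.75 for Foxo3, 2.98 for Irs1, 2.70 for Irs2 and 2.48 for Foxo1.

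The libraries held 27.8 to 45.03 M reads recovered from the TPM, and the 9 genes had between 119 and 13892 reads in a library. Vehicle SP mouse 4 stood apart, with a mean correlation with its own group of 0.939 where the other libraries had 0.962 to 0.982. Mitochondrial genes took 24.0% of its TPM, where the other vehicle SP mice had 13.8% to 16.2%. Its values for Irs1, Irs2, Igfbp1 and Igfbp2 were the lowest of its group, and its Gcgr level, the receptor of glucagon, was 409 where the other vehicle SP mice had 147 to 165. Differences on SP that moved by over 1.5 times or lost their call without this mouse are also given without it. G108 HP mouse 3 had 37.3% of its TPM in mitochondrial genes, where the other G108 HP mice had at most 27.4%. Its mean correlation with its own group was 0.969. It had the highest Irs1 (4.70) and the lowest Insr (4.21) of its group. Without it 17 genes were called on HP by limma, and without vehicle HP mouse 4 it was 18, against 145 with all mice. The hepatocyte markers summed to between 21787 and 31793 scaled TPM in every library, while 5 of 6 skeletal muscle markers had means under 0.1 in every group. The adipocyte markers Adipoq, Plin1, Cidea and Lep were also under 0.1 in every group. In bulk liver, fewer cells of a type and less RNA per cell cannot be told apart.

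On SP, G108 raised Irs1 and Igfbp1, 2 of the 9 genes, and none fell. Over all genes 2.72% were called in that comparison, in either direction. On HP, Irs1 rose again and was the only 1 of the 9 called, where 1.22% of all genes were. Irs2 lay above vehicle on both diets but passed the test on neither. The receptor gene Insr lay slightly below vehicle on both diets and was not called. The median difference of the 9 genes was 0.35 on SP and 0.17 on HP, beside -0.0082 and -0.0036 for all genes tested. At an unadjusted p under 0.05, 7 of the 9 genes were higher on SP, where 17.7% of all genes passed in either direction, and 4 of the 9 were higher on HP, where 11.3% passed. In a fit of only the 8 libraries of each comparison no gene of the 9 passed, with an adjusted p from limma of 0.0744 for Irs1 and 0.0734 for Igfbp1 on SP and 0.0555 for Irs1 on HP, and the differences were as in the fit of all 4 groups.

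**Figure D1:**
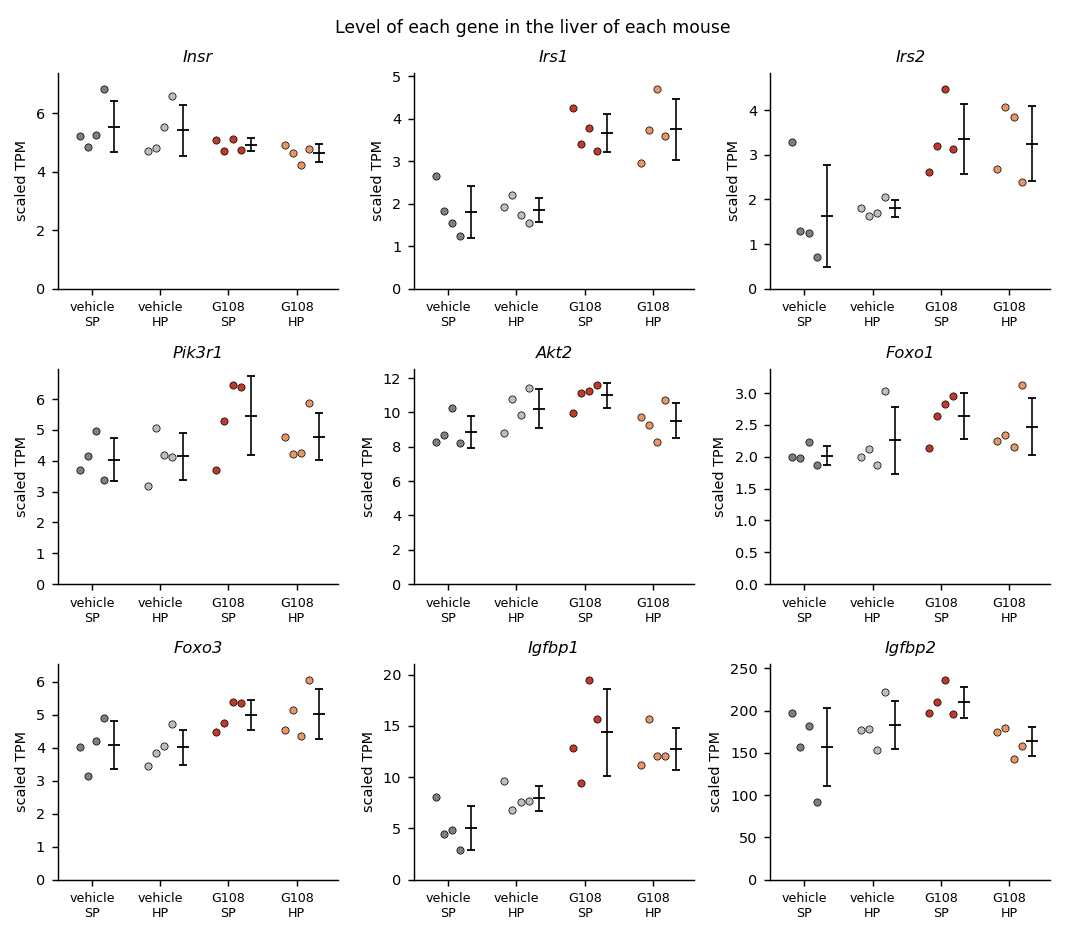
Scaled TPM (y axis, linear, from 0) of the 9 genes in each of the 4 groups (x axis), with 1 point per mouse and the mean ± SD of 4 mice at the right of each group. The 8 G108 mice lie above all 8 vehicle mice for Irs1, from 2.96 against at most 2.66, while the groups overlap for Insr, Foxo1 and Foxo3.

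Irs1 encodes the adaptor that passes the signal of the receptor to PI3 kinase. Its scaled TPM in vehicle SP mice 1 to 4 were 2.66, 1.82, 1.55 and 1.23, and in vehicle HP mice they were 1.93, 2.21, 1.74 and 1.54. With G108 they were 4.26, 3.42, 3.78 and 3.24 on SP and 2.96, 3.74, 4.70 and 3.61 on HP. The lowest G108 mouse thus lay above the highest vehicle mouse on either diet. The group means ± SD (n = 4) were 1.81 ± 0.61 in vehicle SP and 3.68 ± 0.45 in G108 SP, a ratio of 2.03, and 1.86 ± 0.29 in vehicle HP and 3.75 ± 0.72 in G108 HP, a ratio of 2.02. Irs1 rose by 0.75 on SP (SE 0.14, adjusted p = 0.011 by limma, Benjamini-Hochberg) and by 0.73 on HP (SE 0.14, adjusted p = 0.0287). The diets overlapped, and HP minus SP was 0.016 with G108 (95% interval -0.29 to 0.32) and 0.040 with vehicle (-0.27 to 0.35). Without vehicle SP mouse 4 the difference on SP was 0.65 (adjusted p = 0.0314 by limma). The call on HP was lost when any of G108 HP mice 2, 3 and 4 or vehicle HP mice 3 and 4 was left out, with differences of 0.64 to 0.74 and adjusted p from 0.07 to 0.118 by limma. It was also lost with the mouse number as a replicate block (adjusted p = 0.0593) and with no filter on low values (adjusted p = 0.071).

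Irs1 (ENSMUSG00000055980) spans chr1:82233101-82291416 on the minus strand of GRCm38, with 9144 exonic bases in 2 exons. The protein-coding gene model Gm9747 lies on the other strand at chr1:82233112-82235933, and all of its 2822 exonic bases fall within those of Irs1, at the 3′ end of Irs1. Gm9747 had a mean of 6.64 TPM where Irs1 had 2.98, and it also was higher with G108, by 0.82 on SP (SE 0.18, adjusted p = 0.0243 by limma) and by 0.85 on HP (SE 0.18, adjusted p = 0.0371). Whether strand was used in counting is not given in the sources used here. Without strand, reads of Irs1 and Gm9747 in the shared stretch cannot be told apart, and their values are uncertain to that extent.

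Irs2 encodes the second adaptor of the liver, whose gene is a FOXO1 target and also responds to cAMP. In vehicle SP its scaled TPM were 3.29, 1.29, 1.25 and 0.70, a wide spread with a coefficient of variation of 69.8%, while vehicle HP mice had 1.81, 1.63, 1.69 and 2.06. G108 SP mice had 2.61, 3.21, 4.47 and 3.13, and G108 HP mice had 2.68, 4.07, 3.85 and 2.40. Only vehicle SP mouse 1 reached into the G108 range on SP, and on HP the groups did not overlap. The difference was 0.80 on SP (SE 0.23, adjusted p = 0.0818 by limma, Benjamini-Hochberg) and 0.59 on HP (SE 0.23, adjusted p = 0.297), so Irs2 was called on neither diet. Without vehicle SP mouse 1 the difference on SP was 1.06 (adjusted p = 0.00278 by limma), and without vehicle SP mouse 4 it was 0.62 (adjusted p = 0.197). The same comparison passed with voom on the recovered reads (1.25, adjusted p = 0.046) and with a covariate for each library's GC slope (0.84, adjusted p = 0.0344). Irs2 (chr8:10984681-11008458, minus strand) shares 162 exonic bases with 9530052E02Rik on the other strand, which had a mean of 0.448 TPM. Of the other IRS genes, Irs3 was at or under 0.236 TPM in every library and Irs4 is listed at 0 in all 16.

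Insr (chr8:3122061-3279617) encodes the insulin receptor. Its scaled TPM were 5.21, 4.86, 5.25 and 6.82 in vehicle SP, 4.71, 4.81, 5.55 and 6.59 in vehicle HP, 5.10, 4.71, 5.12 and 4.75 in G108 SP, and 4.92, 4.63, 4.21 and 4.77 in G108 HP. The groups overlapped, and the differences were -0.14 on SP (95% interval -0.36 to 0.0885) and -0.18 on HP (-0.40 to 0.0447), neither of them called. Without vehicle SP mouse 4 the difference on SP was -0.046. On SP this direction depends on the scaling, since TPM as deposited gave 0.52. Ratios of genes within a library are free of any scaling between libraries. The Irs1 to Insr ratio of TPM was 0.509, 0.375, 0.295 and 0.181 in vehicle SP and 0.41, 0.461, 0.313 and 0.234 in vehicle HP. It was 0.836, 0.726, 0.738 and 0.683 in G108 SP and 0.602, 0.807, 1.12 and 0.756 in G108 HP, so that every G108 mouse lay above every vehicle mouse. For Irs2 to Insr, G108 mice had 0.503 to 0.913 and vehicle HP mice 0.304 to 0.384, and vehicle SP mice from 0.103 to 0.631 overlapped with G108. The Irs1 to Irs2 ratio overlapped between all groups, from 0.749 to 1.76.

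**Figure D2:**
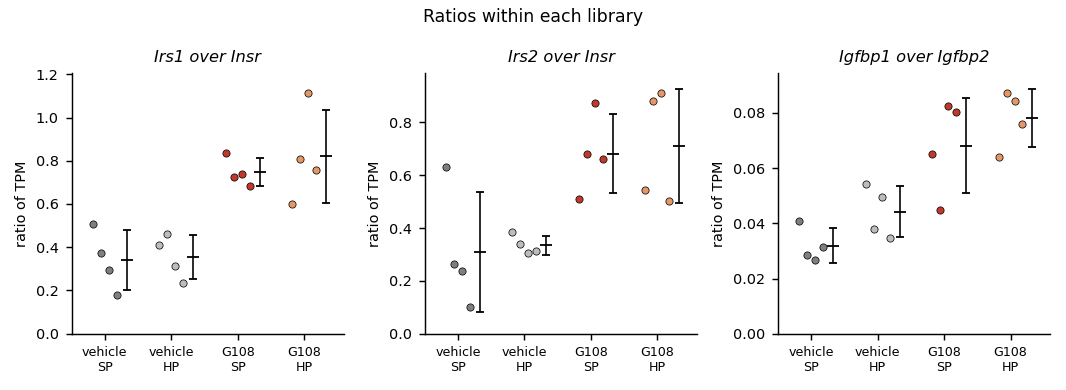
Ratio of the TPM of 2 genes within each library (y axis, linear, from 0) for Irs1 over Insr, Irs2 over Insr and Igfbp1 over Igfbp2, by group (x axis), with 1 point per mouse and the mean ± SD of 4 mice. Irs1 over Insr is at most 0.509 in the 8 vehicle mice and at least 0.602 in the 8 G108 mice.

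Pik3r1 encodes the regulatory subunit of PI3 kinase that binds the IRS proteins, and Akt2 the AKT kinase that predominates in insulin-sensitive tissues. Pik3r1 (chr13:101680563-101768217) had 4.04 ± 0.69 scaled TPM (SD, n = 4) in vehicle SP, 5.47 ± 1.29 in G108 SP, 4.14 ± 0.77 in vehicle HP and 4.78 ± 0.77 in G108 HP. Its difference was 0.35 on SP (SE 0.16, adjusted p = 0.271 by limma) and 0.17 on HP (SE 0.16, adjusted p = 0.78), within the spread between mice. Akt2 (chr7:27591552-27640826) had 8.30, 8.68, 10.3 and 8.23 in vehicle SP and 9.95, 11.1, 11.3 and 11.6 in G108 SP, where only vehicle SP mouse 3 lay above the lowest G108 mouse. On HP the order was not repeated, with 8.80 to 11.4 for vehicle and 8.31 to 10.7 for G108. The Akt2 difference was 0.28 on SP (SE 0.10, adjusted p = 0.163 by limma) and -0.094 on HP (SE 0.10, adjusted p = 0.819), the latter 0.021 with TPM as deposited. The Akt2 to Akt1 ratio of TPM was 1.05 to 1.58 over the 16 mice, with overlap between all groups.

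FOXO1 and FOXO3 are the forkhead factors that AKT keeps out of the nucleus. Foxo1 (chr3:52268336-52353221) had 2.02 ± 0.15 scaled TPM in vehicle SP, 2.64 ± 0.36 in G108 SP, 2.26 ± 0.53 in vehicle HP and 2.47 ± 0.45 in G108 HP. Foxo3 (chr10:42181841-42276755) was the more abundant per length, with 4.08 ± 0.72, 5.0 ± 0.45, 4.01 ± 0.53 and 5.03 ± 0.76 in the same order. Groups overlapped for both genes on both diets. The Foxo1 difference was 0.27 on SP (95% interval 0.016 to 0.52, adjusted p = 0.253 by limma) and 0.097 on HP (-0.15 to 0.35, adjusted p = 0.846). The Foxo3 difference was 0.25 on SP (-0.0058 to 0.50, adjusted p = 0.291 by limma) and 0.26 on HP (0.0096 to 0.52, adjusted p = 0.419). Neither factor was called on either diet, and the Foxo1 to Foxo3 ratio stayed between 0.379 and 0.643 in all libraries. Foxo1 shares 674 exonic bases with the antisense gene Gm20402, which had a mean of 2.31 TPM, and reads there cannot be told apart without strand.

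Igfbp1 encodes a binding protein that hepatocytes secrete in fasting and that insulin shuts off through FOXO1, which makes it a classical reporter of low insulin action in liver. Its scaled TPM were 8.04, 4.49, 4.88 and 2.903 in vehicle SP and 12.9, 9.42, 19.5 and 15.7 in G108 SP, with no overlap. In vehicle HP they were 9.59, 6.80, 7.60 and 7.70, and in G108 HP they were 11.2, 15.7, 12.04 and 12.03, again with no overlap. The group means ± SD (n = 4) were 5.08 ± 2.15 and 14.4 ± 4.26 on SP, a ratio of 2.83, and 7.92 ± 1.18 and 12.7 ± 2.02 on HP, a ratio of 1.61. Igfbp1 rose by 1.36 on SP (SE 0.23, adjusted p = 0.00506 by limma, Benjamini-Hochberg), and without vehicle SP mouse 4 by 1.17 (adjusted p = 0.0147). On HP the difference was 0.62 (SE 0.23, adjusted p = 0.275), which was not called. Within vehicle, HP minus SP was 0.61 (SE 0.23, unadjusted p = 0.019 and adjusted p = 0.832 by limma), and within G108 it was -0.13 (SE 0.23). The interaction, that is the difference of the G108 effect between the diets, was -0.74 (SE 0.33, adjusted p = 0.575), so the effects on SP and HP were not shown to differ.

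Igfbp2 encodes a further binding protein of the same family and was the most abundant of the 9 genes per length. Its scaled TPM were 197, 157, 182 and 91.9 in vehicle SP and 198, 209.7, 236 and 196 in G108 SP. In vehicle HP they were 177, 179, 154 and 222, and in G108 HP they were 174, 179.6, 142 and 158. Groups overlapped between G108 and vehicle on both diets, narrowly so on SP, while all 4 G108 HP mice lay below all 4 G108 SP mice. The difference of G108 from vehicle was 0.47 on SP (SE 0.19, adjusted p = 0.233 by limma) and -0.15 on HP (SE 0.19, adjusted p = 0.851). Without vehicle SP mouse 4, the lowest of all, the difference on SP was 0.23. HP minus SP with G108 was -0.36 (95% interval -0.77 to 0.0581, adjusted p = 0.858). The Igfbp1 to Igfbp2 ratio of TPM was 0.0268 to 0.0408 in vehicle SP and 0.0449 to 0.0825 in G108 SP, and 0.0348 to 0.0543 in vehicle HP and 0.064 to 0.0874 in G108 HP, so the groups did not overlap on either diet.

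**Figure D3:**
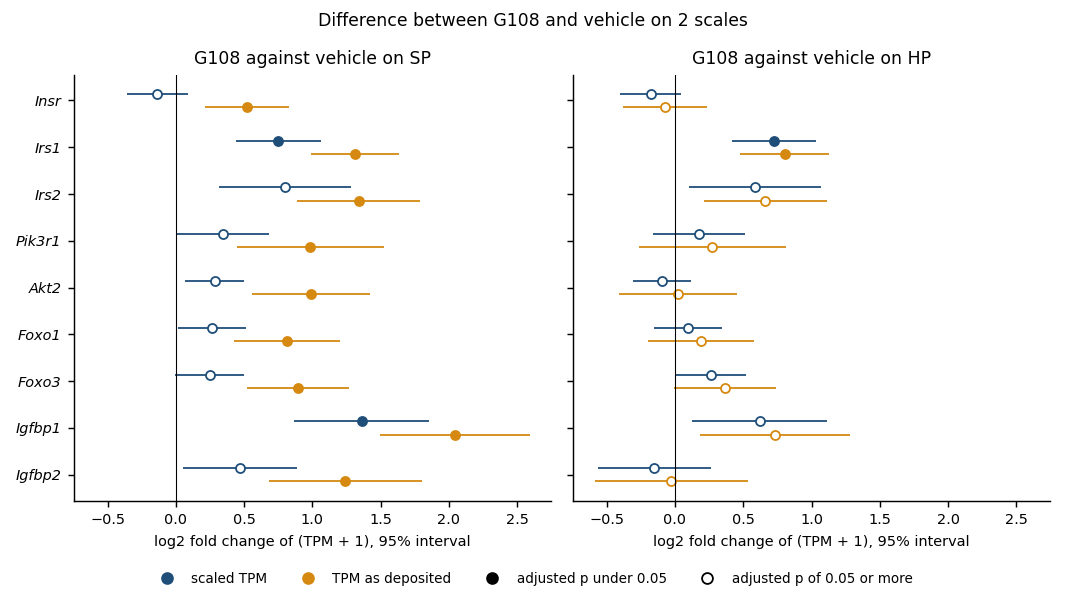
Log2 fold change of (TPM + 1) between G108 and vehicle (x axis, with the 95% interval from limma) for the 9 genes (y axis) on SP and on HP, from scaled TPM and from TPM as deposited. With scaled TPM, Irs1 and Igfbp1 are called on SP and Irs1 on HP, and with TPM as deposited all 9 are called on SP, where the median of all genes is 0.60.

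Irs1, Irs2 and Igfbp1, the 3 genes with the largest differences, were the 3 of the 8 with a promoter here that held the letters CAAAACA. These letters are the core of the insulin response element of the Igfbp1 promoter. The match in Igfbp1 was thus fixed in advance by the choice of letters, and a link of the letters to the differences was not tested. RefSeq promoters of GRCm38.p6 matched 8 of the 9 genes (all but Insr) with 13 start sites, and the 250 bases before each start were searched on both strands. CAAAACA or its complement TGTTTTG occurred in 3 of these 13 promoters, 1 each of 3 genes, and in 5.56% of all 32851 promoters. The windows are shown 5′ to 3′ on the strand of the gene, with these letters in capitals, because these are the genes with the largest differences.
Igfbp1 promoter: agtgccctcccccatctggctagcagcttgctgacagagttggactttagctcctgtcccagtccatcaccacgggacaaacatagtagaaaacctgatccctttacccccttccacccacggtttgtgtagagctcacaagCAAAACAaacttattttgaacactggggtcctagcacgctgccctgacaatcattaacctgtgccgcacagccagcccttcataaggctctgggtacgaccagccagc
Irs1 promoter: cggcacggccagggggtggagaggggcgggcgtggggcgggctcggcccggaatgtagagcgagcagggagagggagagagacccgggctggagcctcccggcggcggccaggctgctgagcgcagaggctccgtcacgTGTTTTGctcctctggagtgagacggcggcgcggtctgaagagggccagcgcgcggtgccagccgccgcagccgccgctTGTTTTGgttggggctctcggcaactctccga
Irs2 promoter: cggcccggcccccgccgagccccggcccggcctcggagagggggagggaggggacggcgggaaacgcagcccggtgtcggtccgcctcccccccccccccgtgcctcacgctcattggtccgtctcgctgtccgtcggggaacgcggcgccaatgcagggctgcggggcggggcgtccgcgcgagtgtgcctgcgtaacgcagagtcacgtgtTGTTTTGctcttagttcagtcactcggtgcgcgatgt
The windows lie at chr11:7197537-7197786 on the plus strand for Igfbp1, chr1:82291440-82291689 on the minus strand for Irs1 and chr8:11008930-11009179 on the minus strand for Irs2. The match begins at base -108 of Igfbp1, at -111 and -32 of Irs1 and at -37 of Irs2, counted from the start site. The FOXO consensus GTAAACA (or TGTTTAC), which has other letters, occurred in 3.17% of all promoters and in 0 of the 13. The half-site of the cAMP response element, TGACG (or CGTCA), occurred in 17.8% of all promoters and in 5 of the 13, which belong to 4 genes, Irs1, Pik3r1, Akt2 and Foxo3. The full element TGACGTCA, which holds the half-site, occurred in 1.55% and in 0 of the 13. A match of letters is a description of these windows and not of a bound site.

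Dietary protein alone moved none of the 9 genes past the test. Between HP and SP, 0 of the 9 genes and 0% of all genes were called by limma with G108, with vehicle or for the interaction, and voom on the recovered reads also called 0 of the 9. At an unadjusted p under 0.05, 0 of the 9 passed with G108, where 5.4% of all genes did, and 1 passed with vehicle (Igfbp1, higher on HP), where 3.94% did. For the interaction, 3 of the 9 passed at an unadjusted p under 0.05, against 7.21% of all genes. These were Akt2 (-0.38, SE 0.14, unadjusted p = 0.0179 by limma), Igfbp1 (-0.74, unadjusted p = 0.0395) and Igfbp2 (-0.62, SE 0.28, unadjusted p = 0.0404), each with a smaller value of G108 minus vehicle on HP than on SP and an adjusted p of 0.575. Counted by whole groups, the 4 G108 mice lay above the 4 vehicle mice for 2 genes on SP (Irs1 and Igfbp1), where 9.21% of all genes did not overlap in one direction or the other, and for 3 genes on HP (Irs1, Irs2 and Igfbp1), where 8.15% did not. Between diets, 1 gene did not overlap with G108 (Igfbp2, lower on HP; 4.27% of all genes) and 0 did with vehicle (2.01% of all genes).

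With TPM as deposited, 9 of 9 genes were called higher with G108 on SP, where 77.6% of all genes were called, and 1 of 9 (Irs1) was called on HP, where 1.11% were. Relative to the median shift of 0.60, Irs1 at 1.31, Irs2 at 1.34 and Igfbp1 at 2.04 stood above it on that scale, and Insr at 0.52 stood below it.

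Of the other genes upstream of FOXO1 and of the IGF system, none in the lists examined was called. Of 9 tested adaptors and negative regulators of the receptor, among them Grb14, Socs3 and the phosphatase gene Ptpn1, 0 were called on either diet. The same count of 0 held for 6 PI3 kinase and phosphoinositide phosphatase genes, for 13 genes of AKT, its kinases, inhibitors and substrates, for 6 FOXO relatives and cofactors, and for 7 other genes of the IGF system. At an unadjusted p under 0.05 these 5 lists, of 41 tested genes, held 3 higher and 3 lower genes on SP and the same numbers on HP. Over all genes 17.7% passed on SP and 11.3% on HP, in either direction. With TPM as deposited, 36 of the 41 genes of the 5 lists were called higher on SP, where 77.6% of all genes were called, and 0 on HP. Trib3, which encodes a pseudokinase that binds AKT, had the lowest value of these lists on both diets, with -0.72 on SP (SE 0.24, adjusted p = 0.146 by limma) and -0.76 on HP (SE 0.24, adjusted p = 0.19). Igf1, the growth factor the binding proteins carry, had 37.6 ± 5.23 and 38.0 ± 3.25 scaled TPM (SD, n = 4) in vehicle SP and G108 SP.

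Of 14 tested genes that FOXO1 activates, 3 were called higher on SP and 0 lower, where 2.72% of all genes were called, with a median of 0.028. With TPM as deposited 11 were called higher, where 77.6% of all genes were called. The 3 called with scaled TPM all serve gluconeogenesis. They were Ppargc1a, a coactivator of gluconeogenesis (0.89, SE 0.14, adjusted p = 0.00274 by limma), Pck1, its rate-limiting enzyme (1.70, SE 0.38, adjusted p = 0.0243), and G6pc, which releases free glucose (1.09, SE 0.25, adjusted p = 0.0296). Without vehicle SP mouse 4 the call of G6pc was lost (1.05, adjusted p = 0.0783 by limma), and 2 of the 14 were called, with a median of -0.022. On HP 1 of the 14 was called, where 1.22% of all genes were. It was Ppargc1a (0.66, SE 0.14, adjusted p = 0.0337 by limma), and the median of the 14 was -0.14. Pck1 (1.17, SE 0.38, adjusted p = 0.19 by limma) and G6pc (0.89, SE 0.25, adjusted p = 0.123) also lay above vehicle on HP with no overlap between the groups, and were not called. Pck1 was 678, 274, 239.8 and 116 scaled TPM in vehicle SP and 706, 983, 943 and 889 in G108 SP, again with the lowest value in vehicle SP mouse 4 and no overlap. These 3 genes are also targets of glucagon through cAMP. At an unadjusted p under 0.05, 4 of the 14 were higher and 3 lower on SP, where 17.7% of all genes passed. On HP 4 were higher and 1 lower, where 11.3% passed. The 4 were on both diets these 3 genes and Fst, which encodes the secreted protein follistatin (0.67 on SP and 0.66 on HP). The 3 lower on SP were Txnip (-0.62), Apoc3 (-0.66) and Gadd45a (-0.51), of which Txnip was also lower on HP (-0.65), and none of these 4 was called by limma with scaled TPM. On SP this direction depends on the scaling. With TPM as deposited Txnip was 0.085, Apoc3 0.12 and Gadd45a 0.096 on SP, none of them called. Fst was 1.06 on that scale and was called, as were 77.6% of all genes.

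Of 10 tested genes that insulin induces, 2 were called lower on SP and 0 higher, where 2.72% of all genes were called. Among the 2 was Thrsp, a gene of lipogenesis (-1.32, SE 0.26, adjusted p = 0.0141 by limma). On HP 0 of the 10 were called, where 1.22% of all genes were, with -0.014 for Thrsp. Thrsp was 191, 134, 217 and 236 scaled TPM in vehicle SP and 61.9, 66.0, 80.2 and 101.0 in G108 SP, with no overlap, and the HP groups overlapped. With TPM as deposited, 3 of the 10 were called higher on SP and 1 lower, where 77.6% of all genes were called. These counts stand beside the shift of 0.60 of all genes, and Thrsp was -0.55 (adjusted p = 0.129 by limma) with overlap between the groups. Fasn and Srebf1, of fatty acid synthesis, overlapped between groups, with differences of -0.79 and -0.20 on SP that were not called and were -0.38 and 0.13 without vehicle SP mouse 4. With TPM as deposited they were -0.024 and 0.57 on SP, neither of them called.

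In the list of genes that answer to glucagon and cAMP, G108 raised 7 of 10 on SP (6 without vehicle SP mouse 4), where 2.72% of all genes were called. On HP it raised 3 of 10, where 1.22% were called. Those named by their adjusted p were Got1 (2.24 on SP, SE 0.28), Ppargc1a, Tat (1.75, SE 0.31), Crem (0.66, SE 0.13) and Sik1 (1.58, SE 0.31), the last a kinase that restrains cAMP signalling. The median of the 10 was 1.24 on SP and 0.89 on HP. With TPM as deposited 10 of 10 were called higher on SP, where 77.6% of all genes were called. On HP 4 of 10 were, where 1.11% were called. This list, like the others, was chosen with earlier results of these data known. Ppargc1a, Pck1 and G6pc are in this list and in that of the genes FOXO1 activates, so the counts on SP share them. Gcgr itself was not called on either diet (-0.58 on SP, adjusted p = 0.318 by limma, and -0.045 on HP, adjusted p = 0.977). On SP it was -0.24 without vehicle SP mouse 4 and 0.19 with TPM as deposited, neither of them called.

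**Figure D4:**
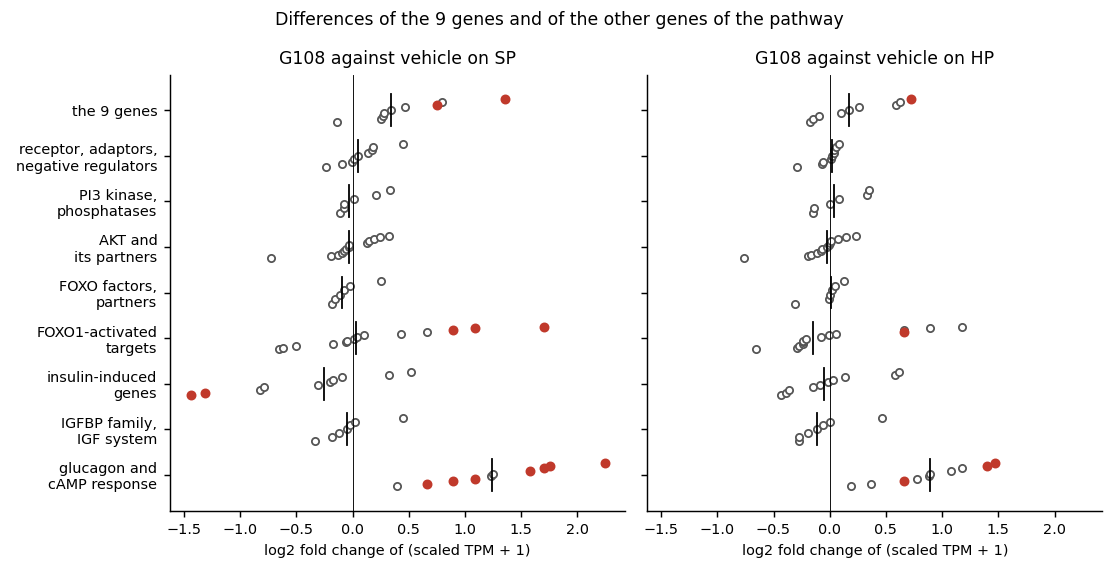
Log2 fold change of (scaled TPM + 1) between G108 and vehicle (x axis) of each tested gene in the 9 lists (y axis), on SP and on HP. Filled points are genes with an adjusted p under 0.05 and the upright lines are medians, which on SP are 0.35 for the 9 genes, 0.028 for FOXO1-activated targets and 1.24 for the glucagon and cAMP list.

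The genes whose levels were most like those of the 9 over the 16 libraries were found by Pearson's r of log2 values, as a description in which group differences and shared library effects both enter. For Irs1 these were Gm9747 (r = 0.969) and D330041H03Rik (0.958), and for Irs2 they were Gm48199 (0.935) and Hagh (0.917). The exonic bases of Gm9747 all lie within those of Irs1, so shared reads can also enter its r if strand was not used. Igfbp1 was most like Rnd1 (0.909) and Got1 (0.908), and within groups these values were 0.597 and 0.56. Pik3r1 was most like Aff4 (0.94) and Clic4, Akt2 like Enox2 and Cd99l2, Foxo1 like Bhlhe40 and Cyld, Foxo3 like Usp2 and Gm12868, Insr like Plxnb2 and Acsm5, and Igfbp2 like Gm45208 and Akr1c12, with r from 0.873 to 0.94. Among the 9 genes, the 36 pairs had r from -0.70 to 0.90 with a median of 0.44. The highest was that of Irs2 and Igfbp1, which was 0.79 within groups, and the lowest was that of Insr and Irs1, which was -0.59 within groups. Pik3r1 and Akt2 (0.81 within groups) and Akt2 and Foxo1 (0.79) also moved together from mouse to mouse.

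Of the marker lists of other cells, with scaled TPM the endothelial sums did not overlap between G108 and vehicle on SP, and the adipocyte sums did not on either diet. The 7 endothelial markers summed to 26.2 to 31.7 scaled TPM in vehicle SP and 20.1 to 24.6 in G108 SP. Of the 6 tested 0 were called, with 4 lower at an unadjusted p under 0.05, where 17.7% of all genes passed. With TPM as deposited the endothelial sums overlapped, with 18.1 to 30.6 in vehicle SP and 23.6 to 37.7 in G108 SP. On that scale 2 of the 6 were called higher, where 77.6% of all genes were called. The 7 adipocyte markers summed to 535 to 863 scaled TPM in vehicle SP and 332 to 401 in G108 SP, and to 509.6 to 678 in vehicle HP and 332 to 424 in G108 HP. With TPM as deposited the adipocyte sums overlapped on SP, with 370 to 675 in vehicle SP and 470 to 546 in G108 SP, and did not on HP. Only Car3 of that list, which hepatocytes also express, had a mean of at least 1 TPM, and it was called lower (-0.88 on SP and -0.70 on HP, adjusted p = 0.00447 and 0.0337 by limma), while with TPM as deposited it was -0.10 on SP and not called. Scaled sums of the Kupffer, stellate and cholangiocyte markers overlapped between G108 and vehicle on both diets. As deposited, the cholangiocyte sums did not overlap on SP, with 10.4 to 17.52 in vehicle SP and 17.63 to 20.2 in G108 SP. Blood cell markers summed to 844 to 3096 scaled TPM in vehicle SP (median 1053) and 657 to 920 in G108 SP. On HP they summed to 998 to 1308 with vehicle and 987 to 2391 with G108 (median 1206). The highest sums were those of vehicle SP mouse 4 and G108 HP mouse 3. These mice also had the lowest hepatocyte sums of their groups. The part of the cells of these lists in the differences of the 9 genes was not tested.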

How the data were processed

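Liver RNA of 16 mice was sequenced, and the authors, per the sources used here, checked reads with FastQC 0.11.8, aligned them to GRCm38 with HISAT2 2.0.5, counted them with featureCounts and deposited TPM for each Ensembl gene. The authors tested counts with DESeq2 1.36.0, and counts were not used here. All 16 columns were assigned by the sample records. Symbols and exon lengths came from GENCODE M21 and covered 55227 of 55487 genes. Reads per library were recovered from low TPM (98.75% of 139252 values with at most 20 reads lay within 0.02 of a whole read), which gave 27.8 to 45.03 M and covers counting error only.

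TPM were divided by median-of-ratios factors from 11591 genes. Genes at or above a mean of 1 TPM were tested on log2(value + 1) with limma 3.58.1 in R 4.3.3, with an intensity trend, all 4 groups in 1 fit and Benjamini-Hochberg adjustment at 0.05. This was tested on simulated data. A fold change on this scale understates that of low genes. The records call the libraries separate mice, and no pair was a duplicate (r within groups 0.929 to 0.989).

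The members, lists and rules were chosen with earlier results of these data known. Named genes are the 9 members, up to 4 called genes per list and contrast, the 2 genes most like each member, and Gcgr. Grb14, Socs3, Ptpn1, Trib3, Igf1, Txnip, Fst, Apoc3, Gadd45a, Fasn, Srebf1, Akt1, Irs3, Irs4 and Car3 were named after their values were seen. 1 hepatocyte marker was not analysed here. 1 called gene of the insulin-induced list is not reported here.

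Alternatives were TPM as deposited, TPM rescaled without the 49 Mup and 37 mitochondrial genes, a pseudocount of 0.1, no filter, a mean TPM of at least 5, only the groups compared, a replicate block, array quality weights, voom on recovered reads, a GC covariate, and each library left out.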

Additional observations from a re-analysis of the deposited data

How the results depend on the processing

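Of the 9 genes, 2 were called on SP and 1 on HP. On SP the count was 9 with TPM as deposited, 8 with array quality weights, 5 with the GC slope as a covariate, 3 with voom on recovered reads (Irs2 besides Irs1 and Igfbp1), 1 with a mean TPM of at least 5 and 0 when only the groups compared were fitted. TPM as deposited, the weights and the GC covariate also called 9185, 1821 and 1730 of the 11839 genes, against 322 in the fit reported, and a mean of at least 5 leaves fewer of the 9 genes to test. On HP the count was 0 with a mean TPM of at least 5, no filter, only the groups compared and the mouse number as a replicate block. Leaving out 1 library at a time gave 2 to 3 genes on SP and 0 to 1 on HP, where the 5 libraries that ended the call of Irs1 are given above, and the third on SP was Irs2 without vehicle SP mouse 1. Between diets and for the interaction the count was 0 under all alternatives. The cause of these changes was not tested. The replicate block kept 2 genes on SP. Mice with the same number did not deviate together (24 pairs, r from -0.57 to 0.53, 8 of them over 0.1), so the numbers were not used as pairs.

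Within the set of genes followed here, small differences changed sign. With TPM as deposited these were Insr on SP (0.52), Akt2 on HP (0.021), HP minus SP with G108 for Irs1 (-0.35) and Foxo3 (-0.38), HP minus SP with vehicle for Insr (0.14) and Foxo3 (0.15), and the interaction for Foxo3 (-0.53). Without Mup and mitochondrial genes they were HP minus SP with G108 for Irs1 (-0.12) and Foxo3 (-0.14) and the Foxo3 interaction (-0.12). With array quality weights they were HP minus SP with G108 for Irs1 (-0.11) and Foxo3 (-0.083), with vehicle for Irs1 (-0.018), Insr (0.0905) and Foxo3 (0.15), and the Foxo3 interaction (-0.23). With the GC covariate it was Pik3r1, HP minus SP with vehicle (-0.015). With 1 library left out, HP minus SP with G108 spanned 0 for Irs1 (-0.076 to 0.099), Irs2 (-0.13 to 0.077), Foxo3 (-0.076 to 0.056) and Igfbp1 (-0.30 to 0.023). With vehicle it did so for Irs1 (-0.063 to 0.17), Irs2 (-0.007 to 0.44), Insr (-0.11 to 0.061), Pik3r1 (-0.059 to 0.12), Foxo1 (-0.011 to 0.15) and Foxo3 (-0.11 to 0.063). The interaction did so for Irs1 (-0.16 to 0.079), Insr (-0.13 to 0.040) and Foxo3 (-0.063 to 0.11). None of the values that changed sign was called, except Insr on SP with TPM as deposited (adjusted p = 0.00576 by limma). The other differences of the set between G108 and vehicle kept their direction under all alternatives. Outside the set, Gcgr, Srebf1, Txnip, Apoc3 and Gadd45a were among the genes that changed sign on SP with TPM as deposited.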
